A study of Mus musculus with 12 samples.

Results

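The comparison described here is that of neutrophils from Runx1 knockout (Runx1KO) mice kept with lipopolysaccharide (LPS) against the same kind of cell kept with vehicle. It takes all libraries that the titles label Runx1KO, 6 of the 12 in the series: 3 with LPS and 3 with vehicle, numbered 1 to 3 in each group. The cells were bone marrow neutrophils of C57BL/6 mice, sorted as CD11b+, Ly6G+, Siglec F- and F4/80-, and kept for 2 h in Hanks solution with 25 mM HEPES and 10% FBS, with or without 100 ng/mL LPS. The other 6 libraries are Control cells under the same conditions. The series design describes Control as LKS- cells from marrow pooled over Runx1f/f and Runx1f/- animals, the latter with a germline mutation of 1 allele, while the sample labels describe sorted neutrophils. Control values are shown here only beside the knockout values. All 12 libraries entered the filter, the scaling and the test model, however. The Control libraries thus share the estimate of spread behind each p and SE of the main fit. The labels do not give the Cre, the promoter or the exons behind the deletion, nor the age of the mice. They do not say that the 3 libraries of a group came from separate animals. By the sex transcripts given below, libraries numbered 2 came from other animals than those numbered 1 and 3. The p-values therefore measure the spread between these libraries, which includes a difference of sex and may be technical in part.

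LPS is a cell wall component of Gram-negative bacteria. The co-receptor Cd14 hands it to the receptor Tlr4 with its partner Ly96, and adaptors such as Myd88 and Ticam1 then release the transcription factor NF-kB and switch on kinase cascades that induce AP-1. In neutrophils this leads within hours to transcripts of cytokines and chemokines and of inhibitors that shut the same pathway off. Runx1 is a DNA-binding factor of blood cell development.

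Total gene counts were 21348792, 22582441 and 23812630 in the vehicle libraries 1, 2 and 3, and 21452163, 24871912 and 25443980 in the LPS libraries. The top 10 genes held 21.6 to 27.8% of each total and mitochondrially encoded transcripts 0.285 to 0.537%. TMM, which scales libraries so that most genes are level, gave LPS library 3 the lowest factor, 0.699, against 0.895 to 1.2 in the other 5. Levels are given as CPM, a gene's count scaled to the TMM-adjusted total of its library. The shift of a numbered pair is the log2 CPM of the LPS library minus that of the vehicle library with the same number, with a prior count of 2, and it has no replicate check of its own. Of the 37310 genes in the table, 12917 had enough counts to be tested. The female transcript Xist stood at 44.1 to 65.7 CPM in the libraries numbered 1 and 3 and at 0 in those numbered 2, where the Y-linked Ddx3y stood at 131 and 192 CPM. Libraries numbered 2 were thus of male type and the others of female type.

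Runx1 itself was counted in every knockout library. It stood at 60.5, 68.4 and 75.4 CPM with vehicle and at 58.3, 68.6 and 43.7 CPM with LPS. LPS library 3 was the lowest and the groups overlapped (log2 fold change -0.26, SE 0.29, edgeR quasi-likelihood test, Benjamini-Hochberg adjusted p = 0.925). Reads from every exon are added up in such a count and the deleted part is not stated, so these levels do not check the genotype labels.

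No gene passed the test between LPS and vehicle. The edgeR quasi-likelihood test called 0 genes higher and 0 lower (0% of 12917 each, smallest adjusted p = 0.873). At an unadjusted p under 0.05 there were 424 higher (3.28%) and 252 lower (1.95%) genes. The 3 LPS libraries lay above all 3 vehicle libraries for 454 genes (3.51%) and below them for 413 (3.2%). With 3 libraries a group, the smallest two-sided p of an exact permutation test on a single gene is 0.1. DESeq2 called 1 gene, the immunoglobulin gene Ighg2c, lower, and limma-voom called 0. The unadjusted counts moved with the libraries used: without LPS library 1 they were 1225 higher and 943 lower, without all libraries numbered 1 they were 695 and 825, and without those numbered 3 they were 61 and 87, with 0 genes called in each case.

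The numbered pairs differed in both the size and the direction of their shifts. In pair 1, 750 genes (5.81%) were higher with LPS by at least 1 log2 and 1120 (8.67%) were lower. In pair 2 the counts were 733 (5.67%) and 581 (4.5%). In pair 3 they were 2177 (16.9%) and 2148 (16.6%), and 916 genes were higher by at least 2 log2. The SD of the shifts over all tested genes was 0.75, 0.65 and 1.39 in pairs 1, 2 and 3. Scaling by library size alone, without TMM, moved the median shift of all genes in pair 3 from -0.04 to -0.78 and gave 1124 genes higher and 5267 lower by at least 1 log2 there, so the balance of higher and lower genes in pair 3 rests on the scaling. In pairs 1 and 2 that scaling moved the median from 0.06 to -0.01 and from 0.02 to -0.13. For the list medians given in the text below, a change of direction under it is named with the median.

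The shifts of pair 3 ran with those of pair 2 and against those of pair 1. Across the 12917 genes the shifts of pairs 2 and 3 correlated with r = 0.336, those of pairs 1 and 3 with r = -0.279 and those of pairs 1 and 2 with r = -0.0667. No library is shared between these pairs, but genes are not independent points, and each r is given as a description. Of the 2177 genes higher by at least 1 log2 in pair 3, 1760 (80.8%) were higher in pair 2 and 774 (35.6%) were higher in pair 1. Over all tested genes 54.7, 52.2 and 48.2% were higher with LPS in pairs 1, 2 and 3. Of the 2148 genes lower by at least 1 log2 in pair 3, 1509 were lower in pair 2, while 1450 (67.5%) were higher in pair 1. Of the 2177 genes, 507 were lower by at least 1 log2 in pair 1 and 127 higher by as much. In the order of pairs 1, 2 and 3, the most frequent sign patterns were higher, lower, lower with 2504 genes (19.4%) and lower, higher, higher with 2254 (17.4%). All 3 pairs were higher for 2018 genes (15.6%) and lower for 1647 (12.8%), and by library size alone these counts were 591 and 3532.

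**Figure D1:**
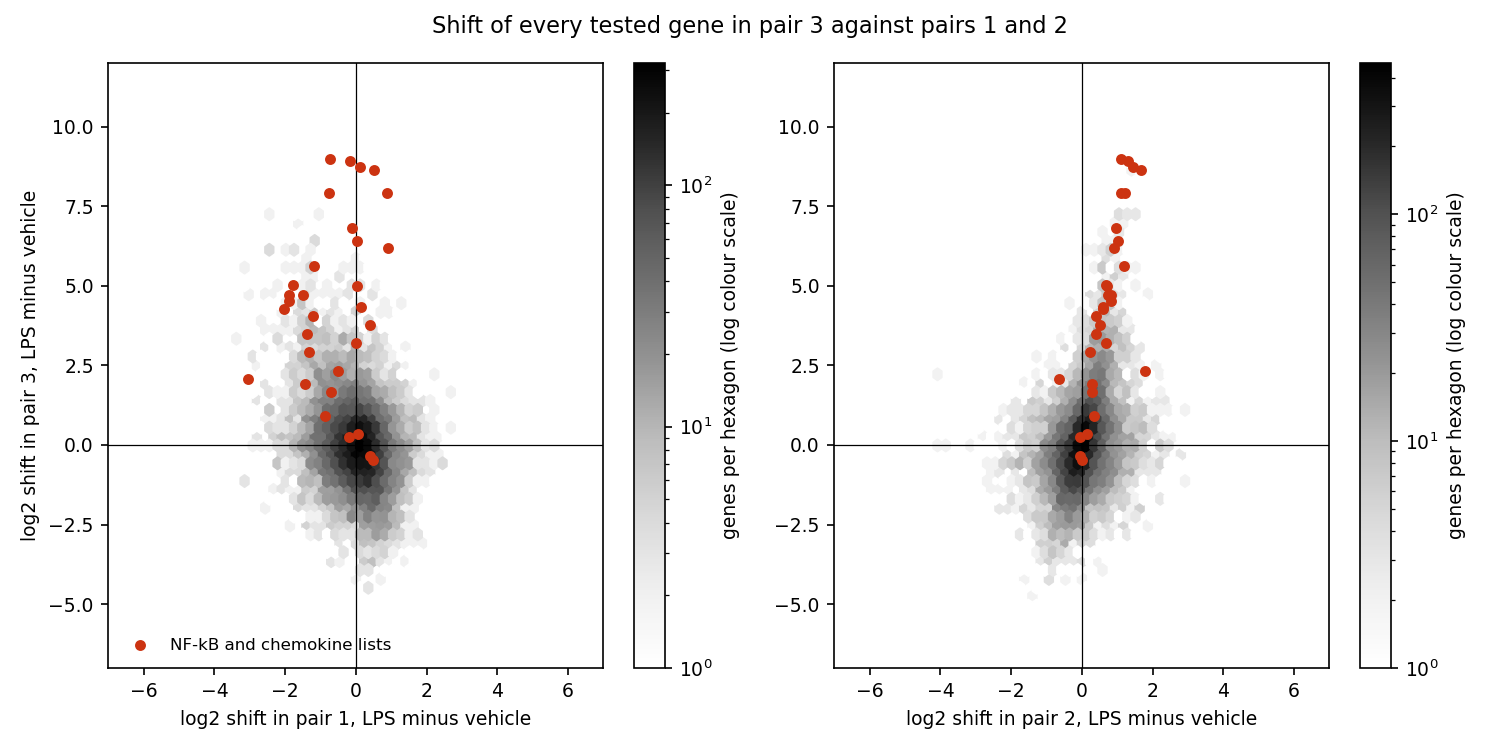
Log2 shift of every tested gene in pair 3 (vertical axis) against pair 1 (left) and pair 2 (right), as hexagons shaded by gene number on a log scale, with the NF-kB and chemokine lists as red points. Most red points lie high in pair 3, right of 0 in pair 2, and on or left of 0 in pair 1.

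The vehicle libraries differed among themselves. The transcripts of the list of NF-kB subunits, their kinases and IkB inhibitors summed to 8715, 9677 and 1078 CPM in vehicle libraries 1, 2 and 3 and to 8152, 15541 and 18457 CPM with LPS. Vehicle libraries 1 and 2 thus already carried several times the NF-kB transcripts of vehicle library 3, and LPS library 3 carried the most. The CXC chemokines summed to 1708, 861 and 31.4 CPM with vehicle and to 1845, 2328 and 11690 CPM with LPS. Vehicle library 3 was again the lowest by far. By at least 1 log2, 3474 genes differed between vehicle libraries 1 and 3, 3430 between 2 and 3, and 2294 between 1 and 2. Between LPS and vehicle, 1870 genes did in pair 1, 1314 in pair 2 and 4325 in pair 3, so only pair 3 exceeded the differences among vehicle libraries. Over LPS libraries 1 and 3, of the same treatment, 5324 genes differed by as much.

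**Figure D2:**
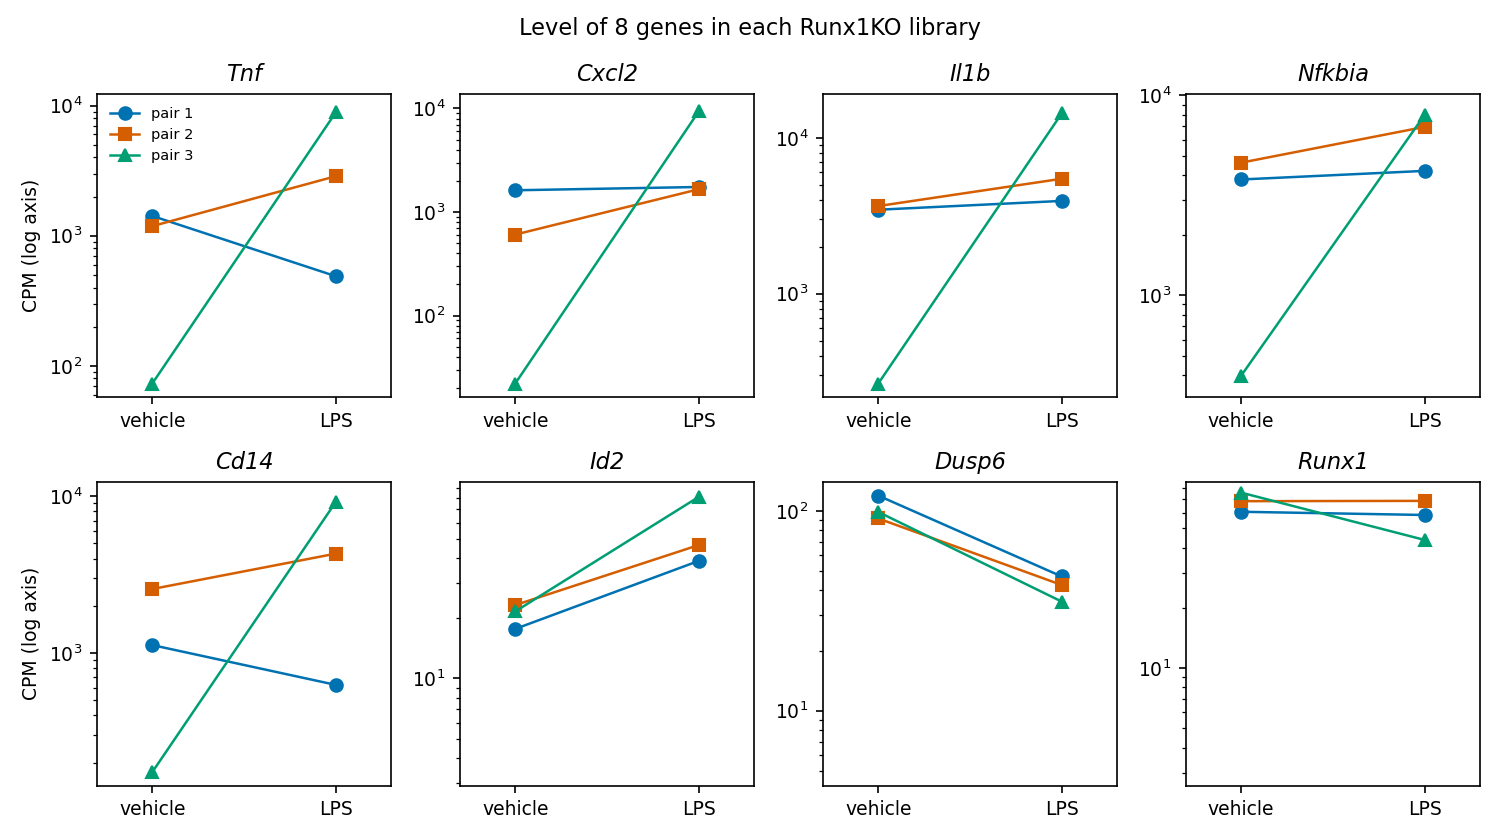
CPM on log axes of 8 genes in the 6 Runx1KO libraries, with a line joining the vehicle and LPS library of each number. The lines of Tnf, Cxcl2, Il1b, Nfkbia and Cd14 start low only in pair 3. Those of Dusp6 run side by side in all 3 pairs, and those of Id2 rise in all 3, most in pair 3.

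Some promoters of these genes hold a match to kappaB, the DNA element through which NF-kB is known to act, and others do not: Tnf, Ccl3 and Il1a, all far higher in LPS library 3 than in vehicle library 3, have 0 matches in the same window. Promoters with a match are printed because the NF-kB and CXC chemokine lists carry the contrast between the pairs; Dusp6 is shown beside them as the first of the lower genes named for a small p. Each sequence runs from 250 bases before to 50 bases after the RefSeq start on GRCm38.p6, another build than the mm9 of the counts, 5′ to 3′ on the gene's strand, with matches to the kappaB consensus in capitals. Nfkbia (chr12:55492598-55492897, minus strand) encodes IkB alpha, which retains NF-kB outside the nucleus, and Cxcl2 (chr5:90903649-90903948, plus strand), Cxcl1 (chr5:90890995-90891294, plus strand) and Cxcl10 (chr5:92348840-92349139, minus strand) encode chemokines. In Cxcl10 the last stretch of capitals is a match to TGANTCA, an AP-1 element. Dusp6 (chr10:99262981-99263280, plus strand) has a match to neither.
Nfkbia: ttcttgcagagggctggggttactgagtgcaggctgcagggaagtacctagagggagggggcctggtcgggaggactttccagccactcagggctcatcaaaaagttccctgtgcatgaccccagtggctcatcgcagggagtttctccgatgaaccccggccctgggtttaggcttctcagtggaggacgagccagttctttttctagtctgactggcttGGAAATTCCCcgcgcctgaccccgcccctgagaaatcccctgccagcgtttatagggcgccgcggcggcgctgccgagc
Cxcl1: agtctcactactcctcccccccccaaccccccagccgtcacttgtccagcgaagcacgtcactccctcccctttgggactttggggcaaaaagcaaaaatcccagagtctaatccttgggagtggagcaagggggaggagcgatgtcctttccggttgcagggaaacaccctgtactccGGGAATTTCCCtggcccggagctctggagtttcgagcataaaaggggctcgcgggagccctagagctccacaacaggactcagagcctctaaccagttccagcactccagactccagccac
Cxcl2: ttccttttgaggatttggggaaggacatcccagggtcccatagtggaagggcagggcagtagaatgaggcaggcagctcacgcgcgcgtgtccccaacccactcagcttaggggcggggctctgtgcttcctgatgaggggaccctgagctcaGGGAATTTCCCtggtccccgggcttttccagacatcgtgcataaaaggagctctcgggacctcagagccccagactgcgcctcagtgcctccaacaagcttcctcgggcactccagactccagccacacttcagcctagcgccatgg
Cxcl10: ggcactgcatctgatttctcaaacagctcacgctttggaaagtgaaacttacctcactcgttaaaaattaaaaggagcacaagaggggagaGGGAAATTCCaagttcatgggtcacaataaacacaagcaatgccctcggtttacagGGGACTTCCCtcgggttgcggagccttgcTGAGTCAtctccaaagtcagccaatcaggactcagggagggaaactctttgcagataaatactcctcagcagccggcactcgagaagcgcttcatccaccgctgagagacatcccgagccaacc
Dusp6: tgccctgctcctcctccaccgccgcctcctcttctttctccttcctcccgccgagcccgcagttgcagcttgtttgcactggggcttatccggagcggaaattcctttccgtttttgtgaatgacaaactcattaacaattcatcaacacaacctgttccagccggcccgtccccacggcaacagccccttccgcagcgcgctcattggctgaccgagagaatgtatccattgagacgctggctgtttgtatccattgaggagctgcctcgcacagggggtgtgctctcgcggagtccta

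The match of Nfkbia lies 29 to 20 bases before the start, and those of Cxcl2 and Cxcl1 begin 97 and 71 bases before it on the plus strand of the gene, each overlapping a match on the other strand. Searched on both strands, the kappaB consensus was found in 1480 of 32851 promoters (4.51%), and in at least 1 promoter of 540 of the 8758 tested genes that have one in the RefSeq table (6.17%). It was found for 158 of 1348 genes higher by at least 1 log2 in pair 3 (11.7%) and for 5.25% of the genes lower there. It was also found for 82 of 698 genes lower by at least 1 log2 in pair 1 (11.7%), against 4.85% of those higher in pair 1. In pair 2 the shares were 5.52 and 5.35%. Of the NF-kB list 6 of 10 matched genes had one, and of the CXC list 4 of 8. TGANTCA was found in 7.81% of all promoters and for 6.53% of the tested genes with one. Its shares were 8.38% of the genes higher and 6.53% of those lower in pair 3, and 8.59 and 8.45% of those higher and lower in pair 1. A match is a run of letters in this window, not a measured binding site.

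The LPS receptor was split. Tlr4, the signalling receptor, stood at 23.6, 17.3 and 30.6 CPM with vehicle and at 34.4, 17.0 and 27.2 CPM with LPS, and the groups overlapped (log2 fold change 0.14, SE 0.49, edgeR adjusted p = 0.993; -0.18 with library size alone and -0.11 without LPS library 1). Ly96, which completes the receptor, stood at 5.87, 6.43 and 21.6 CPM with vehicle and at 12.3, 10.0 and 65.0 CPM with LPS. Its LPS library was the higher in every pair, by 1.05, 0.63 and 1.59 log2, but vehicle library 3 lay above LPS libraries 1 and 2. Cd14, the co-receptor, stood at 1124, 2559 and 174 CPM with vehicle and at 626, 4303 and 9188 CPM with LPS, shifts of -0.84, 0.75 and 5.72. LPS library 1 lay below its own vehicle library, unlike those of pairs 2 and 3 (log2 fold change 1.87, SE 1.02, adjusted p = 0.873). Tlr2, the receptor for bacterial lipoproteins, had shifts of -0.98, 0.49 and 4.20. The adaptor Myd88 had shifts of -1.59, 0.72 and 3.43, and the kinase Ikbke -1.25, 0.77 and 6.12. Of the 17 tested adaptors and kinases, 4, 10 and 13 were higher with LPS in pairs 1, 2 and 3. Their median shift was -0.49, 0.12 and 0.77, and with library size alone it was -0.04 in pair 2 and -0.003 in pair 3.

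The NF-kB list differed in direction between the pairs. In pair 1 most of its genes were lower in the library labelled LPS than in the one labelled vehicle. The labels were kept as given, and whether they are right for these libraries was not tested, so each direction given for pair 1 rests on them. Of its 14 genes, 3 were higher with LPS in pair 1, 12 in pair 2 and 13 in pair 3, and the median shift was -1.26, 0.50 and 3.76. Lower by at least 1 log2 were 8 of the 14 in pair 1, and higher by as much were 11 in pair 3. Relb, a subunit of the non-canonical arm, stood at 150, 345 and 47.2 CPM with vehicle and at 36.7, 527 and 914 CPM with LPS. LPS library 1 was the lowest of all 6 and LPS library 3 the highest. Nfkb2, its partner precursor, had the same order, at 259, 449 and 41.3 CPM with vehicle and at 75.3, 725 and 1348 CPM with LPS, except that vehicle library 3 was lowest. Nfkbia stood at 3796, 4607 and 397 CPM with vehicle and at 4191, 6955 and 7992 CPM with LPS. It was the higher in LPS in every pair (0.14, 0.59 and 4.33), and LPS library 1 lay below vehicle library 2. Nfkbiz, a nuclear IkB protein that induces secondary response genes, stood at 2689, 1945 and 44.3 CPM with vehicle and at 2735, 3969 and 3745 CPM with LPS. It was the 1 member without overlap between the groups, with vehicle library 1 and LPS library 1 only 0.02 log2 apart (log2 fold change 1.16, SE 1.11, adjusted p = 0.896). The kinase subunits Chuk and Ikbkg had shifts between -0.35 and 0.39 in all pairs. No member of the list was called, and 12 of 14 had a positive log2 fold change against 52.6% of all tested genes.

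Genes that shut the pathway off followed the same order. Tnfaip3, the ubiquitin-editing enzyme A20, stood at 1943, 1323 and 50.5 CPM with vehicle and at 1857, 2236 and 2644 CPM with LPS. Tnip1, its binding partner, stood at 291, 536 and 75.2 CPM with vehicle and at 71.2, 749 and 1033 CPM with LPS, so that LPS library 1 was the lowest of the 6. Zfp36, which destabilizes cytokine mRNAs, was the higher in LPS in each pair (0.48, 0.51 and 3.09). Zc3h12a, an RNase with a like role, had shifts of -1.21, 0.84 and 4.97, and Irak3, a kinase-dead brake on the receptor, -1.30, 0.60 and 3.82. Zfp36l2, from the Zfp36 family, went the other way, from 246 CPM in vehicle library 3 to 22.2 CPM in LPS library 3, with shifts of 0.16, -0.95 and -3.47. Over the 16 feedback genes the median shift was -0.40, 0.34 and 3.16, and 12 had a positive log2 fold change, against 52.6% of all tested genes.

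Among the cytokines, the TNF family was lower with LPS in pair 1 and higher in pair 3. Tnf stood at 1419, 1184 and 73.0 CPM with vehicle and at 488, 2866 and 8859 CPM with LPS, shifts of -1.54, 1.27 and 6.92. LPS library 1 lay below vehicle libraries 1 and 2 (log2 fold change 2.19, SE 1.25, adjusted p = 0.873). Its receptor Tnfrsf1b, carried by leukocytes, had shifts of -1.57, 0.53 and 3.55, while the widespread receptor Tnfrsf1a had -0.01, -0.43 and -0.51. Tnfsf14, the ligand LIGHT, was the 1 of 12 family members with an unadjusted edgeR p under 0.05 in the lower direction, against 1.95% of all tested genes. It stood at 7.45, 16.7 and 83.1 CPM with vehicle and at 7.11, 14 and 5.68 CPM with LPS. Its log2 fold change was -2.0 (SE 0.82, edgeR adjusted p = 0.873). It was high in vehicle library 3 alone. The median shift of the 12 tested family members was -1.08, 0.54 and 3.09.

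In the interleukin-1 family the 2 ligands parted in pair 1. Il1b stood at 3458, 3650 and 265 CPM with vehicle and at 3939, 5464 and 14339 CPM with LPS, all LPS libraries above all vehicle libraries (shifts 0.19, 0.58 and 5.76; log2 fold change 1.69, SE 0.82, adjusted p = 0.873). Il1a stood at 292, 136 and 2.00 CPM with vehicle and at 90.5, 345 and 1876 CPM with LPS, shifts of -1.69, 1.35 and 9.81. LPS library 1 lay below vehicle libraries 1 and 2. Il1rn, the receptor antagonist, had shifts of -0.69, 0.50 and 3.50. Il1rap, a shared receptor chain, and Il1r2, a decoy receptor, had shifts between -0.42 and 0.60. The median of the 11 tested family members was -0.08, -0.04 and 0.65, or -0.13 in pair 3 with library size alone.

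The chemokines had the largest median shifts of any list in pairs 2 and 3. Cxcl2, which draws in further neutrophils, stood at 1621, 605 and 22.0 CPM with vehicle and at 1744, 1659 and 9372 CPM with LPS. All 3 LPS libraries lay above all 3 vehicle libraries, by little in pair 1 (shifts 0.11, 1.45 and 8.73; log2 fold change 2.51, SE 1.33, adjusted p = 0.873). Cxcl10, an interferon-induced ligand for T cells, stood at 61.9, 119 and 4.52 CPM with vehicle and at 88.0, 381 and 1829 CPM with LPS, higher in every pair (0.51, 1.68 and 8.63). Ccl4, a CC chemokine that attracts monocytes and T cells, stood at 45.2, 242 and 20.8 CPM with vehicle and at 83.0, 566 and 5075 CPM with LPS, also higher in every pair (0.88, 1.23 and 7.93). Its neighbour Ccl3 stood at 249, 1316 and 23.8 CPM with vehicle and at 222, 3238 and 11658 CPM with LPS. For both, vehicle library 2 lay above LPS library 1. Ccl2, a ligand for monocytes, was higher in every pair too (0.91, 0.92 and 6.19). Ccl6, another CC chemokine, had shifts of 0.47, 0.00 and -0.48. The median shift was -0.23, 1.11 and 6.23 for 8 CXC chemokines and -0.11, 0.92 and 5.61 for the 9 genes of the CC chemokine list, which includes the chemokine-binding receptor Ccrl2. Unadjusted edgeR p values under 0.05 were found for 1 of the 8 and 4 of the 9, all higher, against 3.28% of all tested genes, and none was called.

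Other cytokines repeated this order. Il23a, a subunit of interleukin-23, stood at 146, 63.3 and 0.841 CPM with vehicle and at 43.6, 191 and 488 CPM with LPS, shifts of -1.74, 1.59 and 9.04. Csf3, the granulocyte growth factor G-CSF, stood at 5.14, 12.8 and 0.0701 CPM with vehicle and at 2.65, 32.2 and 329 CPM with LPS. LPS library 3 stood far above the rest for both. Il27, a subunit of interleukin-27, was the 1 of 15 tested members without overlap, against 3.51% of all tested genes higher without overlap. It stood at 7.16, 10.2 and 5.78 CPM with vehicle and at 11.7, 17.7 and 36.0 CPM with LPS. Its log2 fold change was 1.5 (SE 0.50, edgeR adjusted p = 0.873). Il6 was scarce, at 0.0701 to 2.39 CPM with vehicle and 0.342 to 10.6 CPM with LPS. All 15 tested members had a positive log2 fold change, against 52.6% of all tested genes, but only 6 were higher with LPS in pair 1. The median shift of the list was -0.78, 0.57 and 3.45.

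Immediate-early genes, which encode AP-1, EGR and related factors, had a positive median shift in every pair: 0.29, 0.36 and 1.64 over 27 genes. All 3 pairs were higher for 10 of the 27, against 15.6% of all tested genes, and 6 had no overlap, all higher, against 3.51%. Myc, a growth regulator, stood at 0.445, 0.665 and 0.315 CPM with vehicle and at 1.93, 1.89 and 5.0 CPM with LPS, with no overlap (log2 fold change 2.62, SE 0.60, unadjusted p = 0.000987, adjusted p = 0.873). Ier3, an early survival gene, stood at 194, 163 and 28.5 CPM with vehicle and at 301, 275 and 507 CPM with LPS, again with no overlap. Fos stood out in pair 1, at 45.6, 36.7 and 21.1 CPM with vehicle and at 236, 34.1 and 32.7 CPM with LPS. Only LPS library 1 was high. Nr4a1, an orphan nuclear receptor, was higher in every pair (0.29, 0.60 and 6.09). Junb had shifts of -0.01, 0.73 and 3.11 and Egr2, of the same zinc finger family as Egr1, -2.0, 0.37 and 3.07. Leaving out the scaling factors took the median of the list in pair 3 to 0.86.

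Dusp6 had shifts of like size in all pairs. It encodes a cytoplasmic phosphatase that inactivates the kinase ERK, and it stood at 119, 91.5 and 98.7 CPM with vehicle and at 46.9, 42.5 and 35.1 CPM with LPS. Every LPS library was below every vehicle library, with shifts of -1.34, -1.10 and -1.49. The log2 fold change was -1.31 (SE 0.30, unadjusted p = 0.000971, edgeR adjusted p = 0.873), and it was -1.32, -1.41 and -1.26 without the libraries numbered 1, 2 or 3. Over the same omissions that of Tnf was 3.17, 2.65 and 0.35. In the Control libraries the shifts were -0.89, -0.80 and -2.26. The nuclear phosphatases of the same family differed from it: Dusp1 had shifts of -0.16, 0.34 and 2.50, and Dusp2 stood at 8.34 CPM in vehicle library 3 and 393 CPM in LPS library 3, with shifts of 0.02 and 0.25 in pairs 1 and 2. Dusp7, a cytoplasmic relative of Dusp6, had 0.30, -0.88 and -3.87. Over the 13 genes of phosphatases and Sprouty proteins the median was 0.02, 0.34 and 2.50, with -0.07 in pair 1 by library size alone.

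Inducible effector genes gave 21 of 21 positive log2 fold changes, against 52.6% of all tested genes. Of the 21, 4 had an unadjusted edgeR p under 0.05, against 3.28% of all tested genes in the higher direction. In pair 1, 3 of the 21 were higher with LPS and 9 were lower by at least 1 log2. Ptgs2, the prostaglandin synthase COX-2, stood at 373, 289 and 5.99 CPM with vehicle and at 635, 557 and 617 CPM with LPS. The LPS libraries were close to each other and all above vehicle (shifts 0.77, 0.94 and 6.66). Acod1, which makes itaconate, stood at 1676, 1844 and 78.7 CPM with vehicle and at 583, 3841 and 10155 CPM with LPS, lower in pair 1. Icam1, an adhesion ligand, had shifts of -1.78, 0.79 and 7.03 and Sod2, the mitochondrial superoxide dismutase, -1.81, 0.89 and 6.05. Hmox1, the stress enzyme heme oxygenase 1, stood at 35.8, 62.0 and 63.7 CPM with vehicle and at 95.7, 71.4 and 253 CPM with LPS, with no overlap. Serpinb2, a protease inhibitor, had the largest fold change of the list (4.86, SE 1.41, unadjusted p = 0.00495), with shifts of -0.92, 1.70 and 9.26. The list median was -0.92, 0.75 and 4.99.

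Subunits of the phagocyte NADPH oxidase, which makes superoxide, had positive log2 fold changes for 5 of 7 tested genes, against 52.6% of all genes, and 2 of the 7 had no overlap in the higher direction, against 3.51%. None was called. Cybb, the catalytic subunit, stood at 1299, 1916 and 806 CPM with vehicle and at 1456, 2768 and 3325 CPM with LPS, higher in each pair. Ncf4, a cytosolic subunit, stood at 405, 426 and 485 CPM with vehicle and at 548, 489 and 1149 CPM with LPS, and the groups did not overlap. The median of the 7 genes was 0.24, 0.20 and 1.24. Among inflammasome genes, Nlrp3, the sensor, had shifts of -1.45, 0.86 and 4.49, and Casp1, the protease that cleaves pro-interleukin-1, had 0.36, 0.34 and 1.69. Interferon-stimulated genes gave a mixed picture: Isg15, a ubiquitin-like modifier, had shifts of 0.06, 0.79 and 4.16, Irf7 had 0.00, -0.23 and -0.31, and Cmpk2 was high in LPS library 1 alone, at 84.6 CPM against 7.93 to 21.6 CPM in the other 5. The list median over 29 genes was 0.29, 0.02 and 0.53, and with library size alone it was -0.10 in pair 2 and -0.25 in pair 3.

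Among receptors for chemoattractants the members split by identity. Fpr1, the formyl peptide receptor, stood at 1255, 2326 and 500 CPM with vehicle and at 458, 4744 and 13600 CPM with LPS, in the order of the cytokines. Cxcr2, the main chemokine receptor of mature neutrophils, ran opposite, at 497, 663 and 1496 CPM with vehicle and at 560, 424 and 276 CPM with LPS (shifts 0.17, -0.65 and -2.44; log2 fold change -1.08, SE 0.43, adjusted p = 0.873). C5ar2, a receptor for complement C5a, stood at 24.8, 33.0 and 95.8 CPM with vehicle and at 14.9, 17.5 and 13.4 CPM with LPS, lower in every pair and without overlap (log2 fold change -1.74, SE 0.46, unadjusted p = 0.00252, adjusted p = 0.873). The other C5a receptor, C5ar1, had shifts of -0.65, 0.32 and 1.06. Of the 16 receptors 5 were lower in all 3 pairs, against 12.8% of all genes, and 0 were higher in all 3, against 15.6%. The list median was -0.37, -0.32 and -0.33, and by library size alone -0.46, -0.48 and -1.08.

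Ribosomal protein and mitochondrially encoded transcripts were the lists whose members most often went one way. All 3 pairs were higher for 59 of 77 ribosomal protein genes (15.6% of all genes), with median shifts of 0.24, 0.21 and 0.58, although the pair 3 median was -0.19 with library size alone. Rps21 stood at 5.22, 7.45 and 7.67 CPM with vehicle and at 8.09, 11.6 and 11.6 CPM with LPS. It was 1 of 6 members among the 77 that were higher without overlap, against 3.51% of all tested genes. Ribosomal protein genes have processed copies that can share reads, so single members are uncertain. All 3 pairs were higher for 13 of 15 mitochondrial transcripts, with medians of 0.37, 0.34 and 0.87, and 0.28, 0.18 and 0.10 by library size alone. mt-Nd4l, a subunit of complex I, stood at 4.90, 4.88 and 4.84 CPM with vehicle and at 6.34, 6.20 and 6.58 CPM with LPS. It was the only 1 of the 15 mitochondrial members without overlap, against 3.51% of all tested genes higher without overlap. In the Control pairs the medians were -0.01, 0.19 and -0.12 for ribosomal protein genes and -0.03, 0.41 and -0.30 for mitochondrial transcripts.

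**Figure D3:**
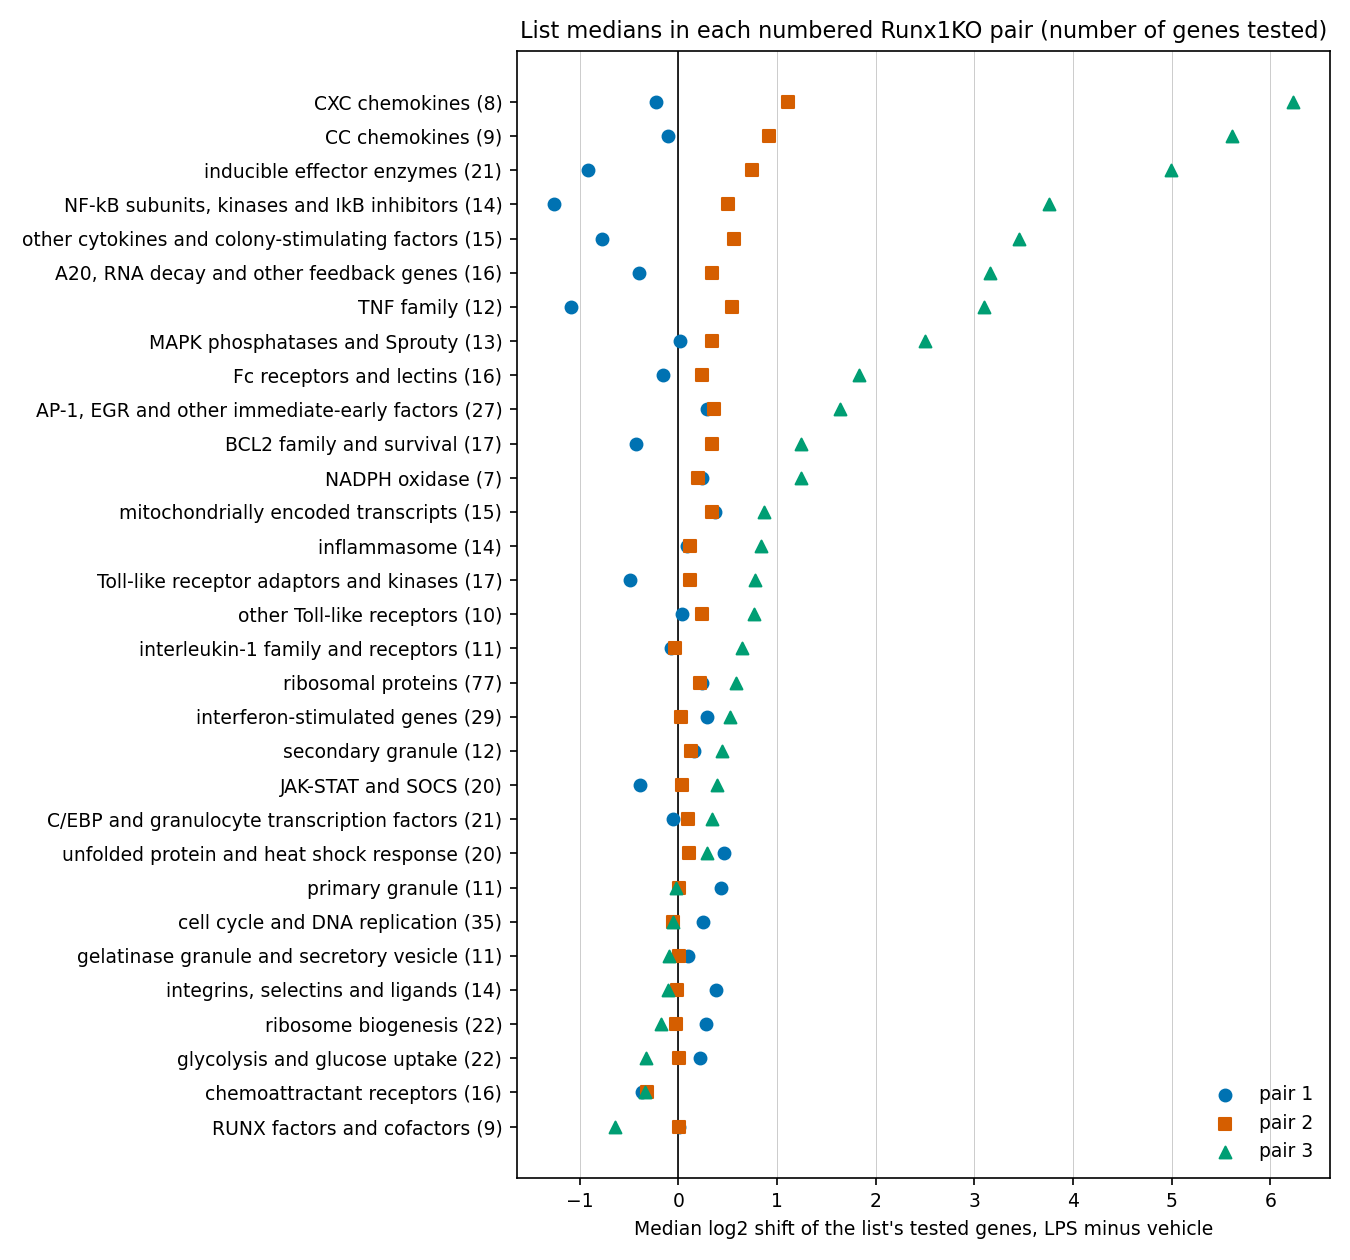
Median log2 shift of each gene list (rows, with the number of tested genes) in Runx1KO pairs 1, 2 and 3. The chemokine, NF-kB, effector, TNF family and other cytokine lists spread from below 0 in pair 1 to between 3.09 and 6.23 in pair 3, while chemoattractant receptors lie between -0.37 and -0.32 in all pairs.

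Some 20 genes kept one direction in all 3 pairs with the largest smallest shift among genes of moderate level, and were chosen for that. Id2, an inhibitor of basic helix-loop-helix factors, stood at 17.7, 23.3 and 21.6 CPM with vehicle and at 38.7, 46.4 and 80.9 CPM with LPS. The groups were well apart (log2 fold change 1.41, SE 0.38, unadjusted p = 0.00327, adjusted p = 0.873). March1, a ubiquitin ligase for MHC class II, stood at 12.8, 11 and 13.3 CPM with vehicle and at 24.3, 23.1 and 26 CPM with LPS, with nearly equal shifts of 0.92, 1.07 and 0.96. Bambi, a pseudoreceptor that damps TGF-beta signalling, had shifts of 0.82, 1.83 and 4.85, from 7.04, 5.36 and 1.02 CPM to 12.5, 19.3 and 31.8 CPM. Sla, Tspan2, Hsdl2, Il27, Ptgs2, Ccl2 and Ccl4 complete the higher set, with smallest shifts of 0.70 to 0.91.

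In the lower set, Smad7, an inhibitor of TGF-beta receptors, stood at 54.5, 35.9 and 30.5 CPM with vehicle and at 13.9, 22.7 and 15.2 CPM with LPS, lower in every pair (-1.96, -0.66 and -1.0). Gcnt1, an enzyme that branches the O-glycans of selectin ligands, stood at 54.4, 64.7 and 238 CPM with vehicle and at 25.1, 30.8 and 30.5 CPM with LPS. Its LPS libraries were alike, and the larger shift of pair 3 (-2.96) came from vehicle library 3. Arrdc3, an arrestin-like adaptor, stood at 278, 375 and 372 CPM with vehicle and at 118, 224 and 48.4 CPM with LPS. Abcd2, a peroxisomal transporter, had shifts of -0.66, -1.02 and -3.58. Dclre1b, Ppp1r3b, Krt83, Yars, C5ar2 and Dusp6 complete the set. Of these 20 genes, 13 had no overlap between LPS and vehicle, against 3.51% higher and 3.2% lower over all genes, but the same 6 libraries chose them, so nothing is read from that count.

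**Figure D4:**
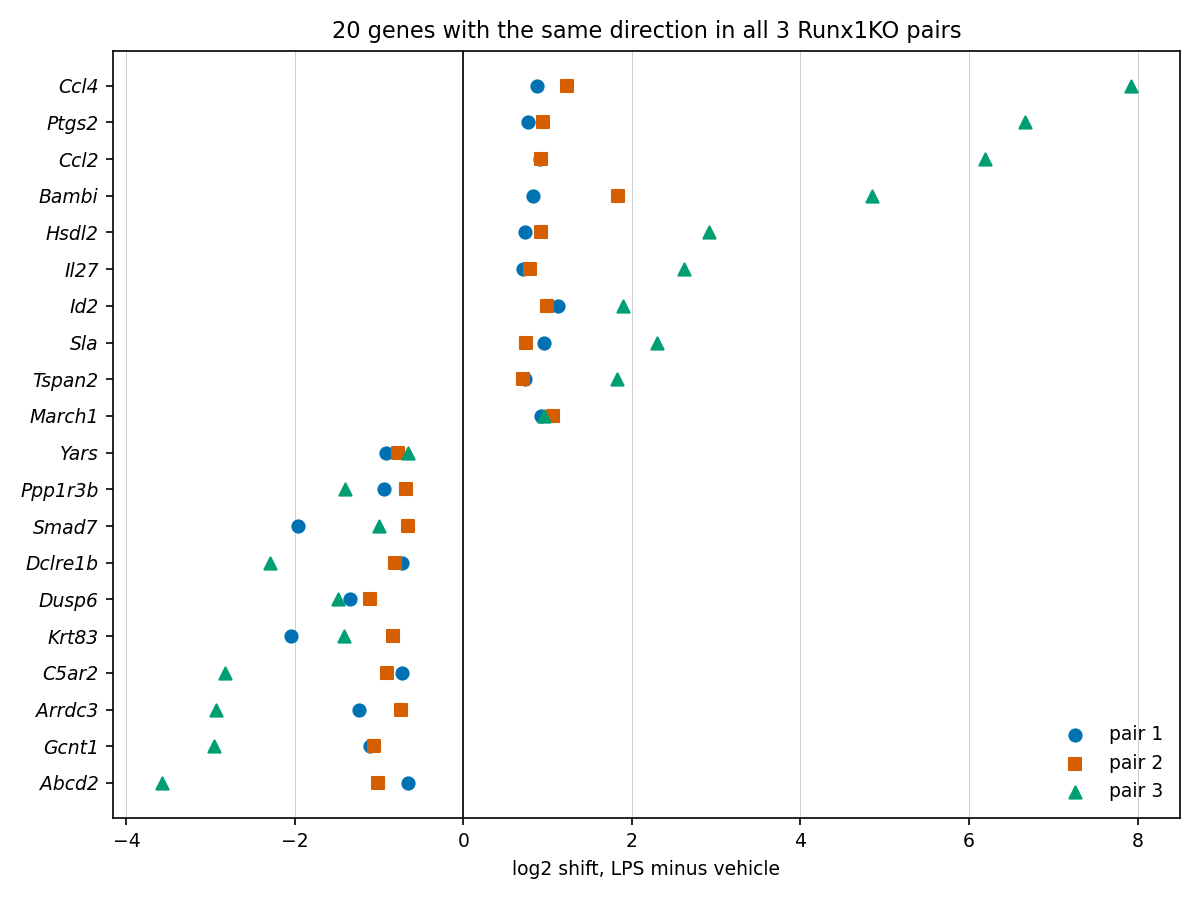
Log2 shift of 20 genes chosen for one direction in all 3 Runx1KO pairs, 1 row a gene and 1 symbol a pair. Dusp6, March1 and Yars have shifts close together, while Ccl4, Ptgs2 and Ccl2 are 5 or more log2 further out in pair 3.

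The genes with the smallest unadjusted p and no overlap include several outside the inflammatory lists. Ndufb3, a subunit of respiratory complex I, stood at 17.4, 18.4 and 16.6 CPM with vehicle and at 24.1, 33.2 and 49.0 CPM with LPS. Its log2 fold change was 1.02 (SE 0.25, unadjusted p = 0.00169). Bcl11a, a zinc finger repressor of blood cells, stood at 6.23, 4.74 and 3.57 CPM with vehicle and at 8.95, 11 and 14.1 CPM with LPS. Cat, the peroxide-degrading catalase, stood at 27.8, 31.3 and 14.6 CPM with vehicle and at 33.9, 61.6 and 71.3 CPM with LPS. For these 3 genes LPS library 3 was highest and pair 1 had the smallest shift. Hsdl2, Zfp991, Zfp703, Rgcc, Adtrp, Id2 and Bambi complete the 10 higher genes, with log2 fold changes of 1.41 to 2.25. In the lower direction, Oscp1 stood at 9.92, 11.5 and 28.8 CPM with vehicle and at 6.68, 5.30 and 3.32 CPM with LPS. Heatr1, a ribosome biogenesis factor, stood at 9.92, 10.7 and 10.4 CPM with vehicle and at 5.82, 6.60 and 4.05 CPM with LPS, a narrow range in each group. Csnk1e, casein kinase 1 epsilon of the circadian clock, had shifts of -0.79, -0.59 and -1.42. Zkscan14, Amer2, Dclre1b, Dusp6, Smad7, C5ar2 and Gcnt1 complete the 10, and the adjusted p was 0.873 for each of the 20.

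The genes most shifted in pair 1 were not among those most shifted in pairs 2 and 3, which shared several. In pair 1 the largest higher shifts among well expressed genes were those of Fos (2.37), Cmpk2 (1.97), Sertad1 (1.87), Trim11 (1.77) and Ly6g (1.72). Ly6g, the antigen used in the sort, stood at 106, 154 and 152 CPM with vehicle and at 351, 156 and 158 CPM with LPS. The heat shock co-chaperone Dnajb1 stood at 48.1, 46.9 and 37.2 CPM with vehicle and at 154, 51.9 and 61.7 CPM with LPS, and the chaperone Hspa8 had shifts of 1.03, -0.04 and 0.16. The median of 20 heat shock and unfolded protein genes was 0.46, 0.10 and 0.29, or 0.37, -0.06 and -0.47 with library size alone. The largest lower shifts in pair 1 were Ski (-2.84), which represses TGF-beta targets, the class I genes H2-Q5 (-2.60) and H2-Q7 (-2.50), Zfp719 (-2.29) and Sh2b2 (-2.14), followed by Nod2 (-2.07), a sensor of bacterial muramyl peptides. Near-identical class I genes can share reads, so the values of H2-Q5 and H2-Q7 are uncertain. Ski stood at 140, 110 and 135 CPM with vehicle and at 19.4, 85.9 and 123 CPM with LPS, low in LPS library 1 alone.

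In pair 2, P2ry13, a receptor for ADP, led the higher genes, at 34.6, 42.4 and 33.5 CPM with vehicle and at 9.20, 141 and 282 CPM with LPS. It was lowest in LPS library 1 and highest in LPS library 3. Cxcl10, Il23a, Vcam1 (1.49), Cxcl2, Cd69 (1.42), Ppp1cb (1.38) and Gimap9 (1.36) followed, and all 8 were higher in pair 3 as well. Rgs2, which turns off Gq-coupled receptors, led the lower genes of both pairs 2 and 3, at 352, 457 and 806 CPM with vehicle and at 432, 159 and 31.4 CPM with LPS. It was not lower in pair 1. Cd300lb, an activating immunoglobulin-like receptor, stood at 46.9, 121 and 533 CPM with vehicle and at 61.2, 45.3 and 21.8 CPM with LPS. Chst12 (-1.17 and -3.85) and Hhex (-1.06 and -3.69) were likewise among the 8 most lowered genes of both pairs 2 and 3, with shifts of 0.15 and 0.12 in pair 1. The largest higher shifts of pair 3 were Il1a (9.81), Ccl3 (8.93), Cxcl2 (8.73), Saa3 (8.65), Cxcl10 (8.63), Ccl4 (7.93), Pim2 (7.66) and Icam1 (7.03). Saa3, an acute phase protein, stood at 24.3, 81.5 and 3.05 CPM with vehicle and at 8.39, 204 and 1257 CPM with LPS. For all 8 vehicle library 3 was the lowest library.

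The neutrophil label was checked against its markers. The 15 neutrophil identity genes summed to 136033, 176702 and 139024 CPM with vehicle and to 189820, 192208 and 212872 CPM with LPS, and all 15 were counted in every library. The members were divided: 15, 5 and 7 of the 15 were higher with LPS in pairs 1, 2 and 3, and the median shift was 0.41, -0.06 and -0.24. S100a8, a calcium-binding alarmin, stood at 21819, 34537 and 29372 CPM with vehicle and at 36324, 41750 and 48022 CPM with LPS, without overlap (log2 fold change 0.56, SE 0.28, adjusted p = 0.873). Lcn2, an iron-trapping granule protein, had shifts of 0.41, 0.37 and 2.11. Ltf, lactoferrin of the same granules, had 0.21, -0.19 and -0.39. Mpo, the myeloperoxidase of primary granules, stood at 44.0, 64.1 and 125 CPM with vehicle and at 59.2, 54.0 and 44.8 CPM with LPS. Lyz2, the lysozyme, stood at 33496, 38240 and 37990 CPM with vehicle and at 43730, 38435 and 49522 CPM with LPS. The median shift of the 11 tested primary granule genes was 0.43, 0.01 and -0.02, and with library size alone it was 0.34, -0.15 and -0.80.

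Markers of other cells differed between the libraries too. Monocyte and macrophage markers summed to 787, 1473 and 1255 CPM with vehicle and to 1017, 1746 and 3201 CPM with LPS. Of 11 tested markers, 6, 7 and 7 were higher with LPS in pairs 1, 2 and 3. Over all tested genes the shares were 54.7, 52.2 and 48.2%. In pair 3, 5 of the 11 were higher by at least 1 log2 and 3 were lower by as much. Adgre1, which encodes the F4/80 antigen that the sort excluded, stood at 24.8, 223 and 47.4 CPM with vehicle and at 20.1, 318 and 1220 CPM with LPS. LPS library 3 was far above the rest, while the macrophage marker C1qb stood at 0.0809 to 1.35 CPM in the 6 libraries. Dendritic cell markers summed to 56.7, 73.3 and 54.9 CPM with vehicle and to 30.7, 87.5 and 340 CPM with LPS, of which Cd74 made 283 CPM in LPS library 3. Erythroid markers summed to 1925, 2864 and 230 CPM with vehicle and to 2055, 3226 and 424 CPM with LPS, low in both libraries numbered 3. Those of B cells, platelets, eosinophils, basophils and T and NK cells stood at 110 to 153, 48.6 to 64.7, 9.55 to 28.7, 1.2 to 3.26 and 6.39 to 13.4 CPM, with 5 of the 10 basophil and mast cell markers at 0 in all 6. In bulk RNA, fewer cells of a type and less RNA per cell cannot be told apart, and the part of these other cells in the shifts of pair 3 was not tested.

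In Control cells too, pair 3 had the most genes shifted by at least 1 log2. Genes higher by at least 1 log2 numbered 291, 423 and 1215 in Control pairs 1, 2 and 3, and those lower numbered 303, 341 and 757. The shifts of Runx1KO pair 3 and Control pair 3, which share no library, correlated with r = 0.639 over the 12917 genes, those of the pairs numbered 2 with r = 0.200 and those numbered 1 with r = -0.0361. In Control pair 1 the NF-kB list had a median shift of 0.37, against -1.26 in Runx1KO pair 1. Tnf had Control shifts of 0.57, 1.09 and 6.09. The difference of the LPS responses between the genotypes, tested as an interaction in the 12-library fit, was called for 0 genes (0%), with 77 (0.596%) at an unadjusted p under 0.05 and a smallest adjusted p of 1. For Tnf it was 0.77 log2 (unadjusted p = 0.66) and for Hsdl2, the first of the 10 higher genes named for a small p, 1.60 (unadjusted p = 0.019). LPS and vehicle did not overlap in the Control libraries for 367 genes in the higher (2.84%) and 300 in the lower direction (2.32%). Both genotypes shared 33 higher genes, 7.27% of those of Runx1KO and 8.99% of those of Control, and 32 lower genes, 7.75 and 10.7%, among them Nfkbiz, Bambi, Bcl11a, Ncf4, Cat and Lyz1 higher and Dusp6, Smad7, Oscp1 and Heatr1 lower. No response was thus shown to differ between Runx1KO and Control cells.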

How the data were processed

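Bulk RNA-seq of 12 libraries was used as the deposited table of raw read counts per gene, not normalized by the authors. The submitters' processing notes name STAR 2.6.0a, featureCounts and the mm9 build. For annotation release and strand setting, nothing is stated in the sources used here, so reads of overlapping or antisense genes cannot be told apart. The table holds 37310 genes, of which 32620 matched a symbol, and no spike-in entries.

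The 6 Runx1KO libraries were grouped by their titles. Genes kept by edgeR 4.0.16 filterByExpr (12917) were scaled by TMM and tested by quasi-likelihood in a single model of all 12 libraries (R 4.3.3), with Benjamini-Hochberg adjustment over all genes and a threshold of 0.05. Shifts of numbered pairs used log2 CPM with a prior count of 2 and have no test. Standard errors (SE) were derived from the test, as the absolute log2 fold change divided by the square root of the quasi-likelihood F statistic. Depth was 21348792 to 25443980 counts per Runx1KO library; reads carry no molecular identifiers. No 2 libraries of a group agreed within sampling noise (lowest chi-square per degree of freedom 118). The scripts were tested on simulated data.

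The members, 43 gene lists, tests and rules were chosen with earlier results of these data known. Named genes are, per direction, the 10 smallest p without overlap and a mean log2 CPM of at least 2, the 10 with the largest smallest shift of one sign in all pairs (at least 3), the 8 largest shifts of each pair (at least 5), and members of the lists. Members of the lists named in the text beyond the 2 per list of the rule were chosen after their values were seen. Alternatives were other scaling (library size alone, DESeq2-type factors), other filters, DESeq2 1.42.0, limma-voom (limma 3.58.1), the knockout libraries alone, a replicate block and leaving out libraries. Promoters are from RefSeq on GRCm38.p6.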

Additional observations from a re-analysis of the deposited data

Results flagged for a closer look

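Sertad1 was named for its shift in Runx1KO pair 1, and Cpa3, Gata2 and Prss57 as list members with the largest mean absolute shifts. Their Runx1KO shifts thus helped to choose them, and the share of all tested genes with such signs was not counted. These 4 named genes were higher with LPS in each Runx1KO pair and lower in each Control pair. They are singled out by these opposite signs; the test of the difference itself, edgeR's interaction term, gave an adjusted p of 1 for each. The log2 fold change in Runx1KO cells was 1.40 for Sertad1, a coactivator of E2F targets, with Runx1KO shifts of 1.87, 0.13 and 1.3 and Control shifts of -0.30, -0.003 and -0.19 (interaction 1.61, unadjusted p = 0.079). It was 0.38 for Gata2, a progenitor and mast cell factor (interaction 0.88, unadjusted p = 0.39), and 0.62 for the granule protease Prss57 (interaction 1.01, unadjusted p = 0.3). Gata2 is among the basophil and mast cell markers, which together summed to 1.2 to 3.26 CPM in the Runx1KO libraries, so its shifts rest on low levels. The fitted 2.73 of Cpa3, a mast cell protease, rests on 3 counts over the vehicle libraries and 19 over the LPS libraries (interaction 3.20, unadjusted p = 0.0096).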

How the results depend on the processing

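No gene was called under any alternative run except DESeq2, which called 1 lower gene (immunoglobulin gene Ighg2c, log2 fold change -4.79, DESeq2 adjusted p = 0.00506, edgeR adjusted p = 0.873). Counts at an unadjusted p under 0.05, 424 higher and 252 lower in the reported fit, moved with the setting; the cause was not tested. They were 100 and 860 with library size alone, 135 and 124 in the 6 Runx1KO libraries alone, and 396 lower without a filter. With 1 library, or all libraries of 1 number, left out they ranged from 61 to 1225 higher and from 87 to 943 lower. Without LPS library 1 they were 1225 and 943, without LPS library 3 166 and 183, without vehicle library 3 194 and 135, without number 1 695 and 825, without number 2 251 and 167, and without number 3 61 and 87. By library size alone pair 3 had 1124 genes higher and 5267 lower by at least 1 log2, and all 3 pairs were higher for 591 and lower for 3532. With the stricter filter, which tests fewer genes, pair 1 had 446 higher and pair 2 had 416 higher and 350 lower. Of 738 log2 fold changes of 41 genes under alternatives, 734 kept direction and side of the threshold and 4 reversed. Most of the 41 were chosen from these libraries for no overlap or for one sign in all 3 pairs. All 41 were far above the threshold in the reported fit, so nothing is read from that count. Sizes moved: Tnf had 3.17 without number 1 and 0.35 without number 3. The 4 reversals were all for Tlr4 (0.14): -0.18 with library size alone, -0.11 without LPS library 1, -0.05 without vehicle library 2 and -0.15 without number 1. With 1 library left out Tlr4 reached 0.36. Same-numbered LPS and vehicle libraries deviated together with r = 0.314, 0.537 and 0.00575. LPS libraries 1 and 2 correlated best with their own number, LPS library 3 with vehicle library 2 (0.218). By this check the libraries numbered 1 and 2 went together and those numbered 3 did not, and the labels do not say what a number stands for. The replicate block gave 0 called genes and 591 higher and 554 lower at an unadjusted p under 0.05, and within the 6 libraries alone 142 and 194.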
